A study of Mus musculus with 18 samples.

Results

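Fc receptors bind the constant part of antibodies and let neutrophils take up and respond to immune complexes. The genes described here are 4 receptors for IgG (Fcgr1, Fcgr2b, Fcgr3 and Fcgr4), the signalling chain Fcer1g, and 4 enzymes that act next to them (the kinases Lyn and Syk, the phosphatases Inpp5d and Ptpn6). They were chosen by gene symbol and make up 9 of the 17941 symbols of the series, and 8 of the 9 had enough counts to be tested. The cells are splenic neutrophils of untreated NZBWF1/J females, F1 hybrids in which a lupus-like disease develops, taken at 14, 20 and 26 weeks of age, which the submitters call stages of disease. All 3 groups share this strain and sex, each holds 6 biological replicates with 1 RNA sequencing library each, and no healthy strain was analysed here, so age and disease stage cannot be told apart. The replicates are called mice below, although the labels do not state that they are separate mice. The sorting gate took DAPI-negative singlets with Ly6b, Ly6G and CD11b on the surface and an intermediate amount of Ly6C.

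The activating receptors encoded by Fcgr1, Fcgr3 and Fcgr4 have no signalling motif of their own and pair with the Fcer1g chain, whose tyrosine motif (ITAM) is phosphorylated by Src family kinases such as Lyn and then docks the kinase Syk. Syk in turn starts phosphoinositide, calcium and cytoskeletal signals that drive uptake and the oxidative burst. Fcgr2b is the inhibitory receptor, whose motif (ITIM) recruits the lipid phosphatase SHIP-1, the product of Inpp5d. The tyrosine phosphatase SHP-1, the product of Ptpn6, is recruited by many other inhibitory receptors, and Lyn phosphorylates motifs of both kinds. In lupus, immune complexes that engage these receptors contribute to kidney injury, and mice without Fcer1g have been used to show this. A promoter allele of Fcgr2b carried by the NZB parent is known for low expression on germinal centre B cells; parental alleles were not separated in the counts used here.

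Fcgr2b, Fcgr4, Fcgr3 and Fcer1g lie in a window of 276 kb on chromosome 1 (GRCm38 coordinates, genes as annotated by GENCODE M21). Fcgr2b spans 170958617 to 170976547 on the minus strand, Fcgr4 171018920 to 171029761 on the plus strand, Fcgr3 171051174 to 171064935 on the minus strand and Fcer1g 171229572 to 171234365 on the minus strand. Inpp5d lies elsewhere on the same chromosome, from 87620312 to 87720507 on the plus strand. Fcgr1 spans 96282909 to 96293969 on chromosome 3, Lyn 3678115 to 3813122 on chromosome 4, Ptpn6 124720707 to 124738714 on chromosome 6 and Syk 52583173 to 52648792 on chromosome 13. All 9 are protein coding.

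The extracellular parts of Fcgr2b and Fcgr3 are close copies of each other, which bears on how reads are split between them. Their longest identical coding run is shown for that reason. It is 129 bases long (capitals), crosses 1 intron in each gene and is printed with 30 flanking coding bases on each side, from GENCODE M21 transcripts on the minus strand, at chr1:170966644-170968111 for Fcgr2b and chr1:171054137-171057822 for Fcgr3.
Fcgr2b: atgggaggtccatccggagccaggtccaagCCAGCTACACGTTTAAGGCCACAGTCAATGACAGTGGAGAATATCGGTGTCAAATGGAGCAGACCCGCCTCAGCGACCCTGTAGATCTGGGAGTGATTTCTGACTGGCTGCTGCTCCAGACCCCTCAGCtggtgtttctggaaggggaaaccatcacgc
Fcgr3: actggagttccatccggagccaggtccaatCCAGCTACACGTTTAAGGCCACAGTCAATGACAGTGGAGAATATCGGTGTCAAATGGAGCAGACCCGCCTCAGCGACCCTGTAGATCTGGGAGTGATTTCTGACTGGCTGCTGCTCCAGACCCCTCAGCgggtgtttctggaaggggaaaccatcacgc
A read of 100 bases that falls inside the capitals matches both genes. Of the distinct 100-base windows in coding transcripts of Fcgr3, 44 of 1345 (3.27%) also occur in Fcgr2b, and these make up 1.14% of the 3866 windows of Fcgr2b. No other pair of the 9 genes shared a window. The sources used here do not say how reads with 2 matches were treated, and the strains' own sequence can differ from the reference. The split between Fcgr2b and Fcgr3 is uncertain for both reasons. These shares count exact matches of 100 bases only. Reads shortened by trimming, or aligned with mismatches, were not examined and could match both genes more often. Of annotated genes on the other strand, Gm20531 overlaps 195 exon bases of Ptpn6, Gm26857 overlaps 248 of Lyn and Gm38204 overlaps 155 of Fcgr2b. Gm38204 was not analysed here. Gm20531 and Gm26857 are in the table, with 27512 and 12965 counts over all libraries, and the sources used here do not give the strand setting of the counting.

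Libraries held 5546624 to 17256379 gene counts. Levels are given as CPM, counts scaled to a library of fixed size with TMM factors (the usual CPM of edgeR), and changes as fitted log2 fold changes ± SE with the adjusted p of edgeR's quasi-likelihood test, called when that p is under 0.05. All 13 neutrophil markers could be tested. They summed to 146500 to 209600 CPM at 14 weeks, 51920 to 124700 CPM at 20 weeks and 163100 to 330900 CPM at 26 weeks. Ngp and Ltf had the most counts of this list, 11025542 and 7216910 over all libraries. Of the 13, 1 was higher and 10 lower at 20 against 14 weeks. The same counts were 6 and 4 at 26 against 14 weeks, and 8 and 1 at 26 against 20 weeks. Whether the sum follows the share of neutrophils was not tested. The monocyte and macrophage list, whose cells also carry all 4 IgG receptors, had 17 of 22 genes in the table and 6 tested. Its sum ranged from 1225 to 1913 CPM at 14 weeks, 1925 to 4660 CPM at 20 weeks and 848 to 2100 CPM at 26 weeks. Slc40a1, an iron exporter gene, made up 72.9% of the counts of this list. It is among 6 of the 17 genes, with Csf1r, Cd68, Adgre1, Treml4 and Lyz1, that were at 0 in no library. C1qa and C1qb were at 0 in 17 of 18 libraries each, and Vsig4 at 0 in 16. Of the 6 tested genes, 5 were higher and 0 lower at 20 against 14 weeks, 1 was higher and 0 lower at 26 against 14 weeks, and 0 were higher and 4 lower at 26 against 20 weeks. B cell markers, whose cells carry Fcgr2b, summed to 13.3 to 46.8, 2.78 to 92.8 and 21.0 to 35.3 CPM at the 3 ages. NK cell markers, whose cells carry Fcgr3, reached at most 4.25 CPM in any library. The part of these cells in the values below was not tested.

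Across the receptors and their partners, no member was called between 20 and 14 weeks, whereas at 26 weeks Fcer1g was higher and Inpp5d, Lyn and Syk were lower than at 14 weeks. In this main fit the 3 tested IgG receptor genes were called in no pair of ages. With a correction for exon length, chosen after seeing the data, Fcer1g, Lyn and Syk lost these calls and Inpp5d kept its call. Fcgr3 was then called lower at 26 weeks, by -0.80 against 14 weeks (adjusted p = 0.00189) and -0.71 against 20 weeks (adjusted p = 0.00147). Leaving out 1 library also ended the call at 26 against 14 weeks for Lyn in 3 fits and for Syk in 8. Between 20 and 14 weeks edgeR called 0 of the 8 tested members, where 10.2% of all 10104 tested genes were called. Neither DESeq2 nor limma-voom called any, and 1 member, Lyn, had an unadjusted p under 0.05. At 26 against 14 weeks 4 of 8 were called, beside 11.0% of all tested genes. At 26 against 20 weeks 3 of 8 were called (Fcer1g higher, Inpp5d and Ptpn6 lower), beside 16.0% of all tested genes. The median log2 change of the 8 members was -0.01, -0.32 and -0.27 in the 3 comparisons, and that of all tested genes was -0.02, 0.04 and 0.05. The 26 week libraries enter the last 2 comparisons, and the 14 week libraries the first 2, so these are not independent of each other. The test of any change with age called Inpp5d (adjusted p = 0.001), Fcer1g (0.00581), Lyn (0.0238) and Syk (0.0317), beside 23.0% of all tested genes.

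**Figure D1:**
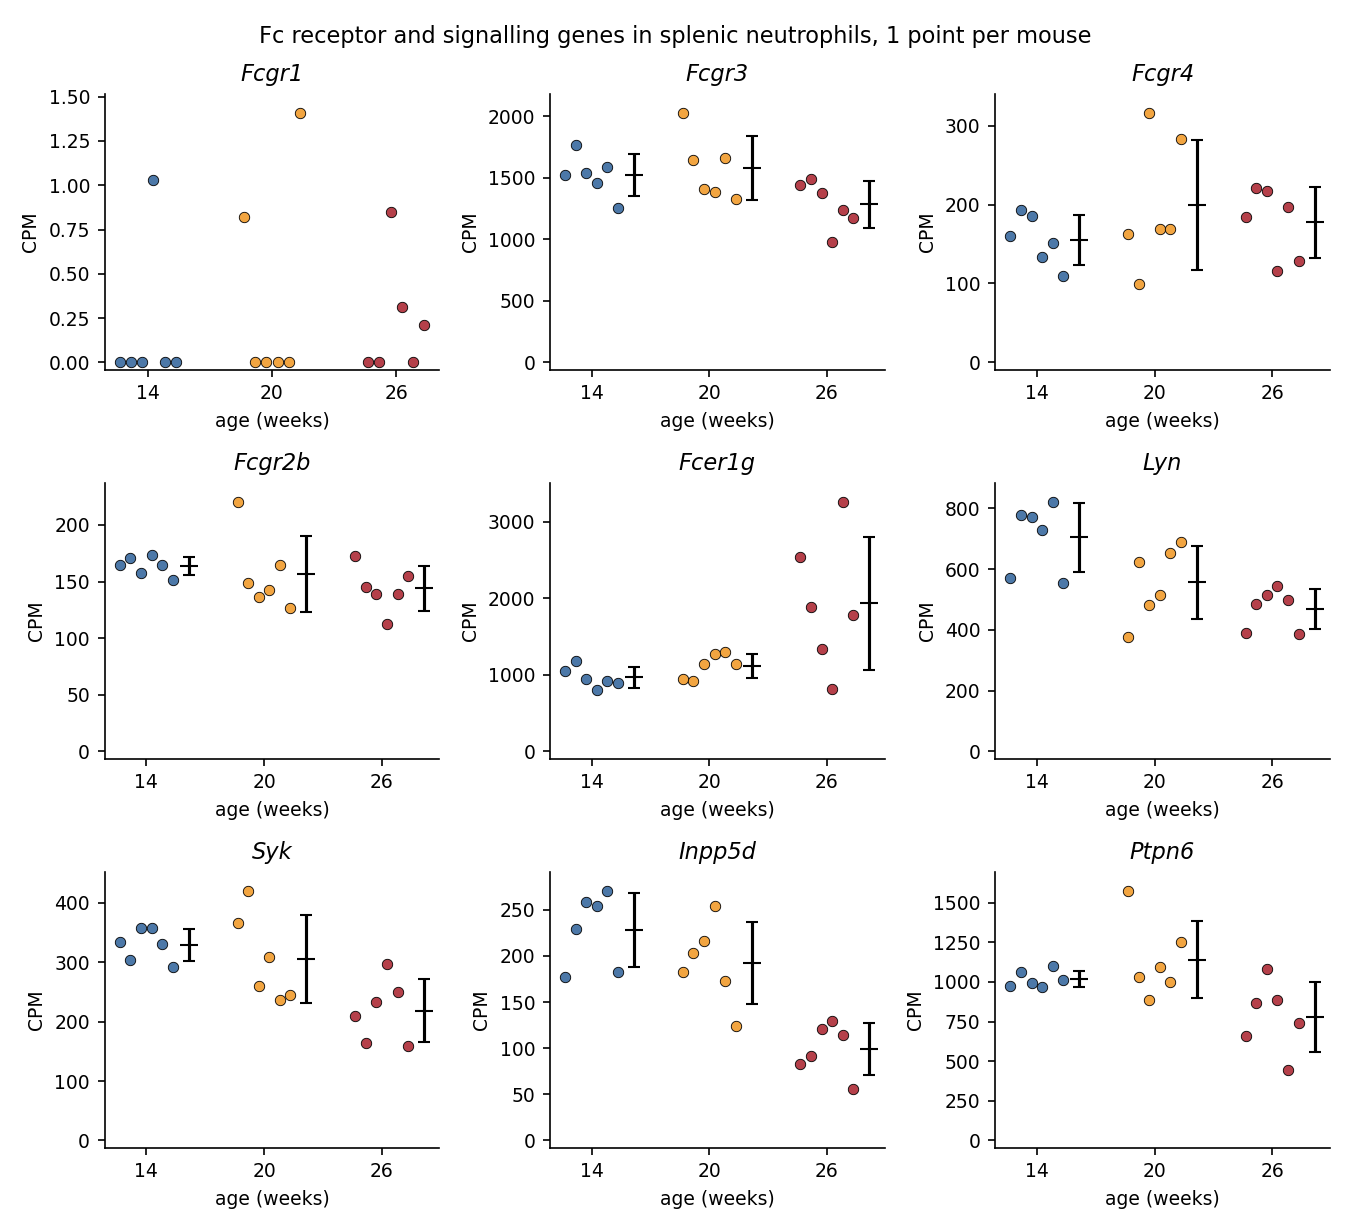
CPM (y axis, starting at or just below 0) of the 9 genes at 14, 20 and 26 weeks, 1 point per library, with the mean and SD as a bar beside the points except for Fcgr1. Inpp5d lay between 55.7 and 130 CPM at 26 weeks, under every 14 week library, while the points of Fcgr3, Fcgr4 and Fcgr2b overlapped at all ages.

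Set against exon length (CPM per kilobase of the union of annotated exons), Fcer1g and Fcgr3 stood highest at every age. A union of exons can exceed any single transcript, and the 26 week libraries differ in short against long genes, as described below. The part of both in this order was not tested. At 14 weeks the means were 1292 ± 177 CPM per kb for Fcer1g, 1128 ± 125 for Fcgr3, 391 ± 20.3 for Ptpn6, 203 ± 32.6 for Lyn and 124 ± 25.0 for Fcgr4 (SD, n = 6). Syk followed at 54.6 ± 4.53, Inpp5d at 45.9 ± 8.07 and Fcgr2b at 43.0 ± 2.13 CPM per kb, and Fcgr1 was last. Neighbours in that order whose ranges overlapped at 14 weeks were Fcer1g and Fcgr3, Syk and Inpp5d, and Inpp5d and Fcgr2b. At 26 weeks Fcer1g averaged 2587 ± 1157 CPM per kb and Fcgr3 952 ± 142, and Inpp5d, at 19.9 ± 5.58, lay below Fcgr2b at 37.8 ± 5.24 and Syk at 36.3 ± 8.80 with no overlap with the range of Syk. Per length, the activating receptor Fcgr3 was thus far above the inhibitory Fcgr2b in all 18 libraries: its lowest value at any age was 727 CPM per kb and the highest of Fcgr2b was 57.7 CPM per kb.

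Fcgr1 encodes the high-affinity IgG receptor, a hallmark of macrophages and interferon-exposed monocytes. It was barely detected. It had 0 counts in 12 of 18 libraries, and at most 15 counts in any library. Summed counts were 12, 24 and 20 over the 6 libraries of 14, 20 and 26 weeks. A count of 0 allows up to 3 counts, which is 0.219 to 0.629 CPM across the 12 libraries at 0, for counting error only. It did not pass the filter on low counts and was not tested.

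Fcgr3, the low-affinity activating receptor that mouse neutrophils carry in abundance, changed little between ages. Its lowest, median and highest values were 1251, 1530 and 1766 CPM at 14 weeks, 1331, 1526 and 2022 CPM at 20 weeks, and 979, 1307 and 1489 CPM at 26 weeks. All 6 libraries of 26 weeks lay below the median of 14 weeks, but the ranges overlapped. The log2 change at 26 against 14 weeks was -0.25 ± 0.13 (95% interval -0.52 to 0.02, adjusted p = 0.268), and at 26 against 20 weeks -0.30 ± 0.13 (-0.57 to -0.03, adjusted p = 0.129). At 20 against 14 weeks it was 0.05 ± 0.13 (-0.22 to 0.32, adjusted p = 0.874). With a correction for exon length, chosen after seeing the data, Fcgr3 was called lower at 26 weeks, by -0.80 against 14 weeks (adjusted p = 0.00189) and by -0.71 against 20 weeks (adjusted p = 0.00147). Scaling by library totals alone also called it at 26 against 20 weeks (-0.51, adjusted p = 0.00709), a scaling that put the median of all genes at -0.16.

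Fcgr4 encodes the activating receptor for IgG2a and IgG2b, classes of antibody that are prominent in this disease model. It ran from 109 to 193 CPM at 14 weeks (median 156), from 98.8 to 316 CPM at 20 weeks (median 169) and from 116 to 221 CPM at 26 weeks (median 191). The 20 week mice were the most spread: replicates 3 and 6 had 316 and 283 CPM, and the SD over the 6 was 82.2 CPM, against 31.4 CPM at 14 weeks. The log2 change was 0.36 ± 0.24 at 20 against 14 weeks (95% interval -0.14 to 0.87, adjusted p = 0.415) and 0.19 ± 0.24 at 26 against 14 weeks (-0.31 to 0.70, adjusted p = 0.727). At 26 against 20 weeks it was -0.17 ± 0.24 (adjusted p = 0.705). The sign at 26 against 14 weeks turned with the length correction (-0.41, adjusted p = 0.356).

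Fcgr2b, the inhibitory receptor, had 152 to 173 CPM at 14 weeks, with a median of 165. At 20 weeks it ran from 127 to 220 CPM (median 146) and at 26 weeks from 113 to 173 CPM (median 142). The groups overlapped in every pair. Its log2 change was -0.07 ± 0.14 at 20 against 14 weeks (95% interval -0.35 to 0.22, adjusted p = 0.848), -0.18 ± 0.14 at 26 against 14 weeks (-0.47 to 0.10, adjusted p = 0.485) and -0.12 ± 0.14 at 26 against 20 weeks (-0.41 to 0.17, adjusted p = 0.63). These intervals leave out a change of 1 log2 unit in either direction.

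The balance of the IgG receptors can be given as counts of 1 per 100 counts of another, which a scaling factor per library does not alter. Fcgr2b had 9.67 to 12.1 counts per 100 of Fcgr3 at 14 weeks, 9.05 to 10.9 at 20 weeks and 9.77 to 13.2 at 26 weeks, so the ratio of inhibitory to activating receptor overlapped at all ages. The exon lengths of the pair differ (3810 and 1347 bases), and with the length correction the log2 change at 26 against 14 weeks was -0.03 for Fcgr2b (adjusted p = 0.959) and -0.80 for Fcgr3 (adjusted p = 0.00189). Over the 18 libraries, log2 CPM of this pair had a Pearson r of 0.789, a description over libraries that share depth and the sequence shown above. Fcgr4 had 8.71 to 12.0 counts per 100 of Fcgr3 at 14 weeks, 6.01 to 22.4 at 20 weeks and 11.0 to 16.0 at 26 weeks. The highest of these, 22.4, is more than any library of 14 or 26 weeks.

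Fcer1g, the ITAM chain that the activating receptors need for surface expression and signalling, was higher at 26 weeks. It ran from 808 to 1185 CPM at 14 weeks (median 933), from 926 to 1299 CPM at 20 weeks (median 1138) and from 811 to 3254 CPM at 26 weeks (median 1831). Of the 26 week mice 5 lay above every library of 14 and 20 weeks, and replicate 4, at 811 CPM, lay inside the range of 14 weeks. The mean was 1935 ± 866 CPM at 26 weeks and 966 ± 133 CPM at 14 weeks (SD, n = 6 each), a log2 change of 1.00 ± 0.23 (95% interval 0.52 to 1.48, adjusted p = 0.00872). Against 20 weeks, at 1120 ± 156 CPM, the change was 0.79 ± 0.23 (adjusted p = 0.0222), a call lost without 20 weeks replicate 2 or 26 weeks replicate 1 or 5 (adjusted p = 0.0504 to 0.0696), with the replicate block (0.0544), with only those 2 ages in the fit (0.0651) and with library totals alone (0.0761). For 20 against 14 weeks it was 0.21 ± 0.23 (adjusted p = 0.651). Fcer1g had 55.6 to 71.3 counts per 100 of Fcgr3 at 14 weeks, 46.9 to 91.6 at 20 weeks and 82.9 to 264 at 26 weeks. The range of 26 weeks did not overlap that of 14 weeks and overlapped that of 20 weeks.

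Fcer1g has 748 exon bases, the fewest of the 9 genes, and genes with few exon bases as a class were higher in the same libraries. At 26 against 14 weeks the median log2 change was 0.84 for 803 other tested genes under 1000 exon bases, 0.47 for 1983 genes of 1000 bases and over but under 2000, -0.06 for 3705 genes of 2000 bases and over but under 4000 and -0.22 for 3440 genes of 4000 bases and over. Expressed per library as the median of the shortest class minus that of the longest, on the log2 scale against the 14 week mean, this measure ran from -0.22 to 0.09 at 14 weeks, -0.05 to 0.43 at 20 weeks and 0.04 to 1.58 at 26 weeks. The library of 26 weeks with the lowest measure, replicate 4 (0.04), was the one with the lowest Fcer1g, and replicates 1 and 5, with the highest measures (1.58 and 1.41), had the highest Fcer1g (2541 and 3254 CPM). With each library corrected for exon length, an alternative chosen after seeing the data, Fcer1g changed by 0.07 at 26 against 14 weeks (adjusted p = 0.833) and by 0.00 against 20 weeks (adjusted p = 0.986), and neither was called. The part of exon length in the rise of Fcer1g was not tested beyond this correction.

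**Figure D2:**
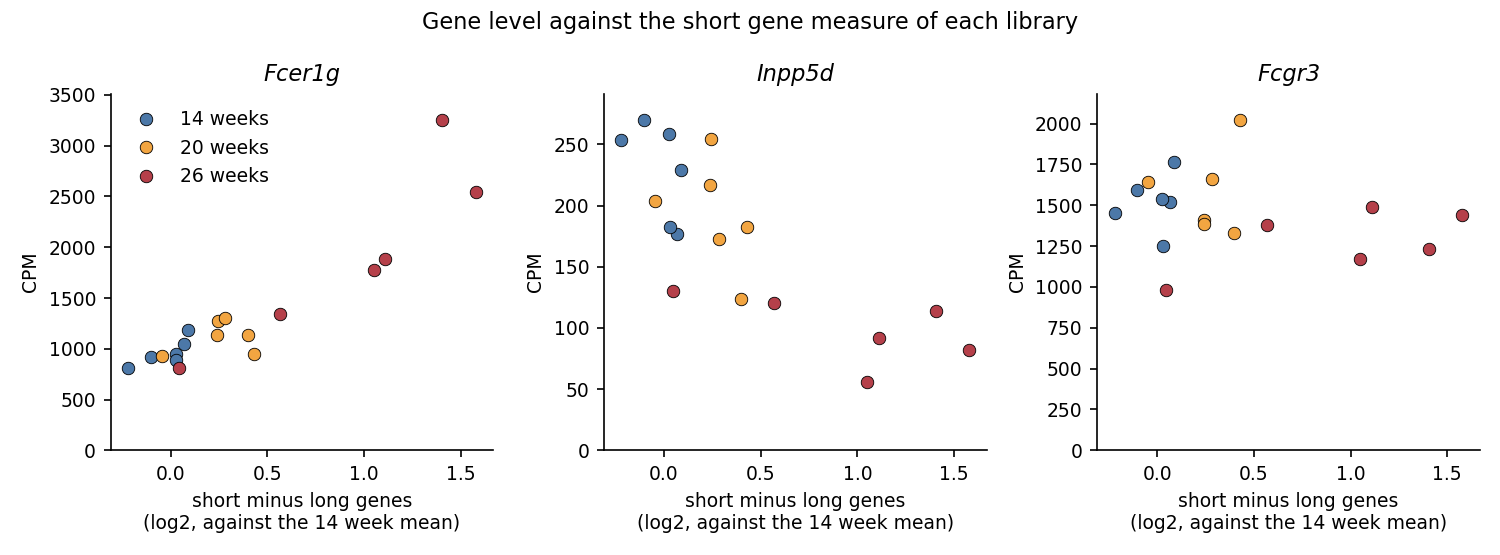
CPM of Fcer1g, Inpp5d and Fcgr3 (y axes from 0) against the short gene measure of each library (x axis, log2), 1 point per library, coloured by age. The 26 week library with a measure of 0.04 had 811 CPM of Fcer1g, inside the range of 14 weeks. It had 130 CPM of Inpp5d, the highest of 26 weeks and below all 14 week libraries. This is 1 library, and the part of length was not tested.

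Lyn, the Src family kinase that starts signalling from both activating and inhibitory motifs, was lower at 26 weeks. Its lowest, median and highest values were 555, 750 and 819 CPM at 14 weeks, 375, 569 and 688 CPM at 20 weeks, and 387, 491 and 545 CPM at 26 weeks. The highest library of 26 weeks lay under the lowest of 14 weeks. Lyn and Inpp5d, 2 of the 8 tested members, were the ones without overlap at 26 against 14 weeks, beside 6.76% of all tested genes. In the other comparisons 0 of 8 were without overlap, beside 6.9% of all tested genes at 20 against 14 weeks and 5.96% at 26 against 20 weeks. The log2 change was -0.58 ± 0.15 (95% interval -0.90 to -0.26, adjusted p = 0.0187), and the call was lost without 14 weeks replicate 5 or 26 weeks replicate 1 or 6 (adjusted p = 0.0502 to 0.0714) and with the length correction (-0.48, adjusted p = 0.0588). At 20 against 14 weeks the change was -0.34 ± 0.15 (adjusted p = 0.185), with all 6 mice of 20 weeks below the median of 14 weeks, and at 26 against 20 weeks -0.24 ± 0.15 (adjusted p = 0.321).

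Syk, the kinase with paired SH2 domains that binds the phosphorylated ITAM, was also lower at 26 weeks. It ran from 292 to 358 CPM at 14 weeks (median 332), from 236 to 420 CPM at 20 weeks (median 285) and from 159 to 298 CPM at 26 weeks (median 222). Only 26 weeks replicate 4, at 298 CPM, reached into the range of 14 weeks. The log2 change at 26 against 14 weeks was -0.59 ± 0.17 (95% interval -0.94 to -0.24, adjusted p = 0.0292). This call was close to the threshold. Leaving out any of 8 libraries ended it (14 weeks replicates 1, 3, 4 and 5, and 26 weeks replicates 1, 2, 3 and 6, adjusted p = 0.0532 to 0.103), with no filter on low counts (0.0702) and with the length correction (0.106). At 26 against 20 weeks the change of -0.48 ± 0.17 was not called (adjusted p = 0.0562), and DESeq2 (0.0364), limma-voom (0.0216), library totals (0.0121), the length correction (0.0373) and 4 fits without 1 library (0.0172 to 0.0466) called it. Those 4 left out 20 weeks replicate 3, 5 or 6 or 26 weeks replicate 4. The change at 20 against 14 weeks was -0.11 ± 0.17 (adjusted p = 0.783).

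Inpp5d, which encodes SHIP-1, the phosphatase that removes the 5-phosphate of the lipid product of PI3 kinase, had the largest change of the 8 tested members in both comparisons of 26 weeks. Its lowest, median and highest values were 177, 241 and 270 CPM at 14 weeks, 124, 193 and 254 CPM at 20 weeks, and 55.7, 103 and 130 CPM at 26 weeks. The ranges of 26 and 14 weeks did not overlap, and the highest library of 26 weeks exceeded the lowest of 20 weeks (124 CPM, replicate 6). The mean was 99.1 ± 27.8 CPM at 26 weeks and 228 ± 40.2 CPM at 14 weeks (SD, n = 6 each), a log2 change of -1.21 ± 0.20 (95% interval -1.63 to -0.78, adjusted p = 0.00162). At 26 against 20 weeks, where 20 weeks averaged 192 ± 44.1 CPM, it was -0.96 ± 0.20 (-1.38 to -0.54, adjusted p = 0.00289). At 20 against 14 weeks the change of -0.25 ± 0.20 was not called (adjusted p = 0.513). Both calls stood in each of the 18 fits without 1 library (adjusted p up to 0.00773 and 0.011) and in each of the 10 other alternatives, the length correction included (-1.03, adjusted p = 0.00311, and -0.87, adjusted p = 0.00354). In bulk RNA, fewer cells with a high level and less RNA per cell cannot be told apart.

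Ptpn6, which encodes SHP-1, the tyrosine phosphatase recruited by inhibitory receptors, was lower at 26 than at 20 weeks. It ran from 969 to 1100 CPM at 14 weeks (median 1002), from 886 to 1571 CPM at 20 weeks (median 1064) and from 442 to 1084 CPM at 26 weeks (median 802). The spread at 14 weeks was small, at 52.8 CPM (SD), and at 26 weeks replicates 5 and 3 marked the ends of the range. These 2 libraries held the fewest and the most counts of all 18 (5546624 and 17256379), and the part of depth was not tested. The log2 change at 26 against 20 weeks was -0.55 ± 0.17 (95% interval -0.91 to -0.19, adjusted p = 0.0351). The call was lost without 20 weeks replicate 1, 4 or 6 or 26 weeks replicate 1, 2, 5 or 6 (adjusted p = 0.0505 to 0.0898), with the replicate block (0.0572), with no filter on low counts (0.0633) and with only those 2 ages (0.0978). At 26 against 14 weeks it was -0.39 ± 0.17 (adjusted p = 0.174, called by limma-voom with adjusted p = 0.025) and at 20 against 14 weeks 0.16 ± 0.17 (adjusted p = 0.646).

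Inpp5d fell further than Syk. It had 35.1 to 55.9 counts per 100 of Syk at 26 weeks (median 44.7), against 53.0 to 81.7 at 14 weeks (median 71.6), so 26 weeks overlapped 14 weeks only at the ends. Ptpn6 had 177 to 527 counts per 100 of Syk at 26 weeks and 271 to 350 at 14 weeks, and Lyn 183 to 296 and 171 to 257, with wide overlap in both.

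**Figure D3:**
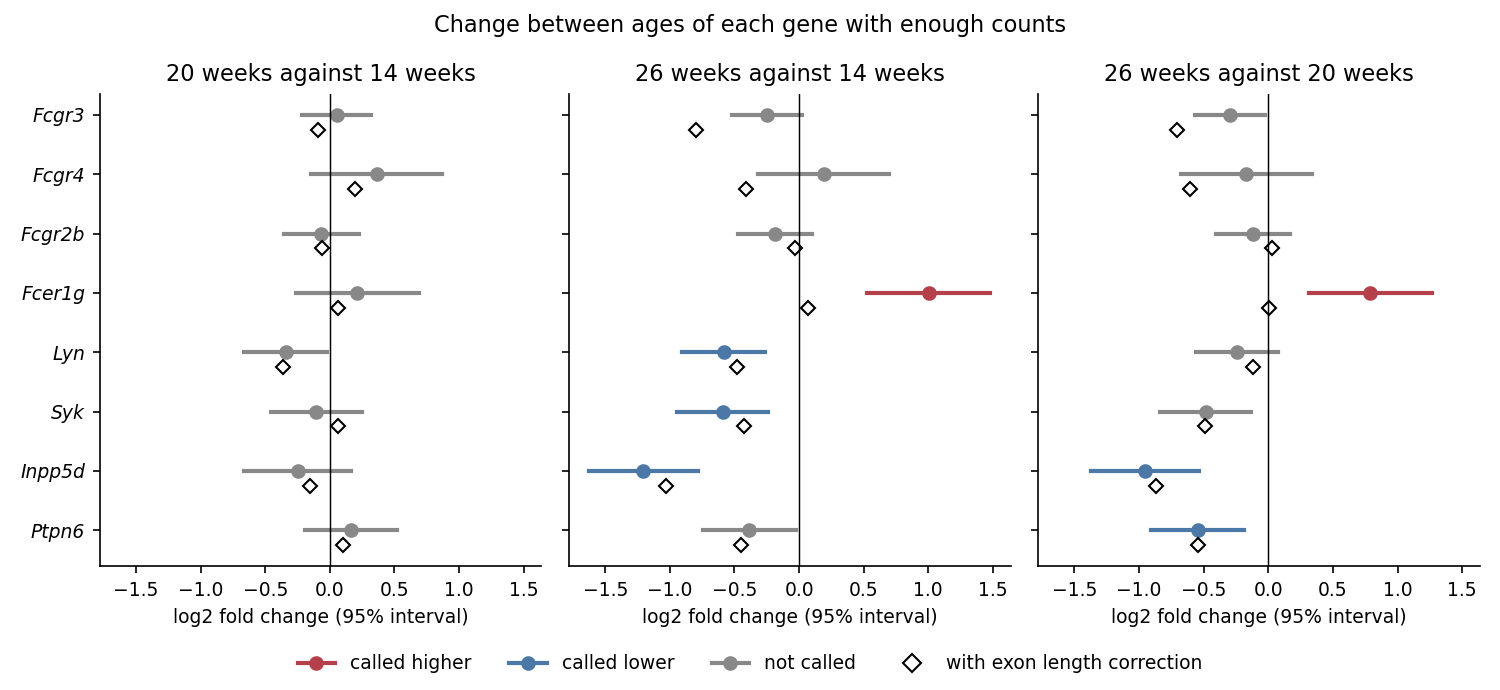
Fitted log2 fold changes (x axis) with 95% intervals for the 8 tested genes in the 3 pairs of ages, coloured by call, with open diamonds for the value after the exon length correction. Inpp5d lay at -1.21 and -0.96 in the comparisons of 26 weeks with a diamond close by, and Fcer1g lay at 1.00 and 0.79 with its diamonds at 0.07 and 0.00.

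The promoters of the gene that rose and of the one that fell most are shown for comparison of their sequence, each with 250 bases before and 50 after the start in RefSeq (GRCm38.p6), at chr1:171234300-171234599 on the minus strand for Fcer1g and chr1:87620062-87620361 on the plus strand for Inpp5d. Capitals mark the letters GAGGAA on either strand, a core bound by the myeloid factor PU.1.
Fcer1g: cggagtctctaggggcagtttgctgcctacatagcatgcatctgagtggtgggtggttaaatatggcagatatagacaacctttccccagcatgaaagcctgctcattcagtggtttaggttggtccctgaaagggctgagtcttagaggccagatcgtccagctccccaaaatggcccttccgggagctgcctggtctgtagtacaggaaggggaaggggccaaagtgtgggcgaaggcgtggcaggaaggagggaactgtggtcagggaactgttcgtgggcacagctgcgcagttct
Inpp5d: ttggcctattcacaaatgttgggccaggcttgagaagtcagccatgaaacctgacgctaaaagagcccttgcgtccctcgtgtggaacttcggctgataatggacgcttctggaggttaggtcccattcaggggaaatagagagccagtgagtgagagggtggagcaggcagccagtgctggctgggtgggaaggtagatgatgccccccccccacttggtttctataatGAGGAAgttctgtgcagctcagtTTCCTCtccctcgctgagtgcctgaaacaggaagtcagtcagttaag
The Inpp5d window holds 2 such matches and the Fcer1g window 0. RefSeq promoters were matched for 8 of the 9 genes (10 windows), of which 6 windows of 5 genes hold GAGGAA, beside 28.3% of all 32851 promoter windows of that length. Both windows of Fcgr3 are among the 6 and overlap almost wholly. The letters TTCNNNGAA, the gamma-activated site bound by STAT factors after interferon, reads the same on both strands and was found in 1 of the 10 windows, that of Fcgr1, beside 8.3% of all windows. Within the 276 kb from Fcgr2b to Fcer1g, 5 of 11 coding genes could be tested, the 4 members and Sdhc, a subunit of the respiratory chain. Sdhc was higher at 26 than at 14 weeks (log2 change 0.94, adjusted p = 0.0391), as was Fcer1g, while the 3 receptor genes beside them were not called. With the length correction Fcer1g was not called (0.07, adjusted p = 0.833) and Fcgr3 was called lower (-0.80, adjusted p = 0.00189). The corrected value of Sdhc is not reported here, and a part of the shared position was not tested.

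Genes whose log2 CPM ran most like that of a member over the 18 libraries were picked by Pearson r among 4216 abundant genes, as a measure of likeness with no test. Fcer1g was most like Tmsb4x (r = 0.98), the actin-binding thymosin gene, Cstb (0.96), a protease inhibitor gene, and Tomm6os (0.96). Inpp5d was most like Prex1 (0.955), an exchange factor for Rac, and the cytokine receptor kinase genes Jak1 (0.927) and Jak2 (0.906), all with 4906 exon bases or more. Syk was most like Mxd1 (0.911), Dnm2 (0.898) and Sipa1 (0.895), Lyn close to Ipcef1 (0.859) and Far1 (0.827), and Ptpn6 most like Sh3gl1 (0.906), the Src family kinase Fgr (0.899) and Mical1 (0.893). The receptors had weaker likenesses. Fcgr2b was nearest to Pdlim7 (0.825), Fcgr3 to Slfn2 (0.814) and Fcgr4 to Ptms (0.787). Among the members themselves, Inpp5d and Syk were the closest pair (0.836) and Fcer1g and Ptpn6 the most opposed (-0.764). All these values share the depth and length measures of the same libraries.

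Of 100 other genes listed for Fc receptor signalling, 94 were in the table and 80 could be tested. At 20 against 14 weeks 6 were higher and 8 lower, at 26 against 14 weeks 4 were higher and 15 lower, and at 26 against 20 weeks 4 were higher and 19 lower. The shares of all tested genes called higher and lower were 4.93% and 5.27%, 5.45% and 5.54%, and 8.03% and 7.98% in the same order. The counts of each list below stand beside these same shares, and no list was tested as a set. The median log2 change of the 80 was -0.09, -0.36 and -0.42.

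Among the other Fc receptors, 9 of 12 were in the table and 2 were tested, and neither was called in any pair of ages. Fcrl1, an Fc receptor-like gene best known from B cells, averaged 78.1 ± 22.4 CPM at 26 weeks and 81.9 ± 12.3 CPM at 14 weeks (SD, n = 6 each). Trim21, the cytosolic antibody receptor and a lupus autoantigen, averaged 9.90 ± 3.77 CPM at 26 weeks and 13.1 ± 6.18 CPM at 14 weeks.

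In the list of signalling adaptor chains beside Fcer1g, 2 of 4 tested genes rose at 26 against 14 weeks and 0 fell (median 0.63), 1 rose at 26 against 20 weeks, and 0 were called at 20 against 14 weeks. Tyrobp, which encodes the ITAM chain DAP12 of other myeloid receptors, rose by 0.99 ± 0.23 (adjusted p = 0.0107), to 1520 ± 620 CPM at 26 weeks, against 769 ± 211 CPM at 14 weeks. Hcst, which encodes DAP10, a chain that signals through PI3 kinase and has no ITAM, rose by 1.97 ± 0.41 (adjusted p = 0.00542). Its mean was 57.5 ± 43.3 CPM at 26 weeks, a wide spread, against 14.7 ± 1.69 CPM at 14 weeks. These genes have 564 and 442 exon bases, in the length class whose median was 0.84 higher.

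Of 8 tested Src family kinases and regulators, 0 rose and 2, 1 and 3 fell at 20 against 14, 26 against 14 and 26 against 20 weeks. Fgr fell by 0.53 ± 0.13 at 26 against 20 weeks (adjusted p = 0.00765), as did Csk, the kinase that holds this family inactive (0.52 ± 0.13, adjusted p = 0.00989), and Ptprc, the CD45 phosphatase that releases it (0.75 ± 0.19, adjusted p = 0.0107). Pag1, which anchors Csk at the membrane, fell by 0.69 ± 0.21 at 20 against 14 weeks (adjusted p = 0.0459). Fgr has 3710 exon bases, Csk 3338, Ptprc 5119 and Pag1 8256, and the part of length in these changes was not tested.

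Adaptors and enzymes downstream of Syk formed the largest list. Of 29 tested, 0 rose and 4 fell at 20 against 14 weeks, 0 rose and 8 fell at 26 against 14 weeks (median -0.55), and 1 rose and 6 fell at 26 against 20 weeks (median -0.50). Pik3cg, a catalytic subunit of PI3 kinase, averaged 134 ± 50.2 CPM at 26 weeks and 331 ± 26.7 CPM at 14 weeks (-1.30 ± 0.22, adjusted p = 0.00155), and Pik3cd, another, 92.3 ± 31.6 and 173 ± 30.6 CPM (-0.91 ± 0.20, adjusted p = 0.0066). Both had ranges at 26 weeks that did not overlap those of 14 weeks. Akt1, a kinase that responds to the lipid product of PI3 kinase, fell by 0.70 ± 0.17 (adjusted p = 0.0104). Prkcb, a protein kinase C gene, and Plcg2, the phospholipase that Syk activates, were already lower at 20 weeks. Prkcb changed by -1.06 ± 0.16 at 20 against 14 weeks (adjusted p = 0.000641) and -1.05 ± 0.16 at 26 against 14 weeks (adjusted p = 0.00149), and Plcg2 by -0.64 ± 0.17 (adjusted p = 0.0211) and -0.91 ± 0.17 (adjusted p = 0.00329). Long genes as a class were lower in the same libraries. At 26 against 14 weeks 43 genes of 4000 bases and over were called higher and 307 lower, and 95 and 217 of those from 2000 to under 4000 bases. Pik3cg has 6222 exon bases, Pik3cd 5320, Plcg2 4298, Prkcb 3569 and Akt1 2690. The part of length in these changes was not tested.

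Actin and uptake effectors were called in both directions, as were all tested genes in near equal shares. Of 17 tested, 2 rose and 1 fell at 20 against 14 weeks, 1 rose and 3 fell at 26 against 14 weeks, and 2 rose and 4 fell at 26 against 20 weeks. Myo1f, a neutrophil myosin, averaged 586 ± 202 CPM at 26 weeks and 1390 ± 146 CPM at 14 weeks (-1.25 ± 0.20, adjusted p = 0.00154), and Elmo1, part of a Rac exchange complex, fell by 1.00 ± 0.21 (adjusted p = 0.0058). Arpc3, a subunit of the actin-branching complex with 1170 exon bases, rose by 0.64 ± 0.17 (adjusted p = 0.018). Myo1f has 3831 exon bases and Elmo1 6220, and the part of length in these changes was not tested. Marcks, an actin-linking substrate of protein kinase C with 4048 exon bases, rose by 1.65 ± 0.29 at 20 against 14 weeks (adjusted p = 0.00127). The sum of the monocyte and macrophage list was also higher there, and the part of such cells in this change was not tested.

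Of 20 tested inhibitory phosphatases, receptors and adaptors, 4 rose and 1 fell at 20 against 14 weeks, 1 rose and 3 fell at 26 against 14 weeks, and 0 rose and 6 fell at 26 against 20 weeks. Sirpa, an inhibitory receptor that recruits SHP-1, fell by 0.89 ± 0.20 at 26 against 14 weeks (adjusted p = 0.00828). Lair1, an inhibitory collagen receptor, rose by 3.06 ± 0.63 at 20 against 14 weeks (adjusted p = 0.00427), to 42.7 ± 20.7 CPM at 20 weeks, against 5.11 ± 3.61 CPM at 14 weeks. It stayed higher at 26 weeks (2.76 ± 0.63 against 14 weeks, adjusted p = 0.00829). Cd300a, another inhibitory receptor, rose by 1.21 ± 0.23 at 20 against 14 weeks (adjusted p = 0.00258), and Siglece, an inhibitory sialic acid receptor, by 0.58 ± 0.16 (adjusted p = 0.0211). Both fell at 26 against 20 weeks, by 0.76 ± 0.23 (adjusted p = 0.0285) and 0.87 ± 0.16 (adjusted p = 0.0011). The tested monocyte and macrophage markers moved the same way, with a median log2 change of 1.21 at 20 against 14 weeks and -1.10 at 26 against 20 weeks, and their part in these changes was not tested. Sirpa has 4241 exon bases, Lair1 7183, Cd300a 4645 and Siglece 1849, and the part of length was not tested either.

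**Figure D4:**
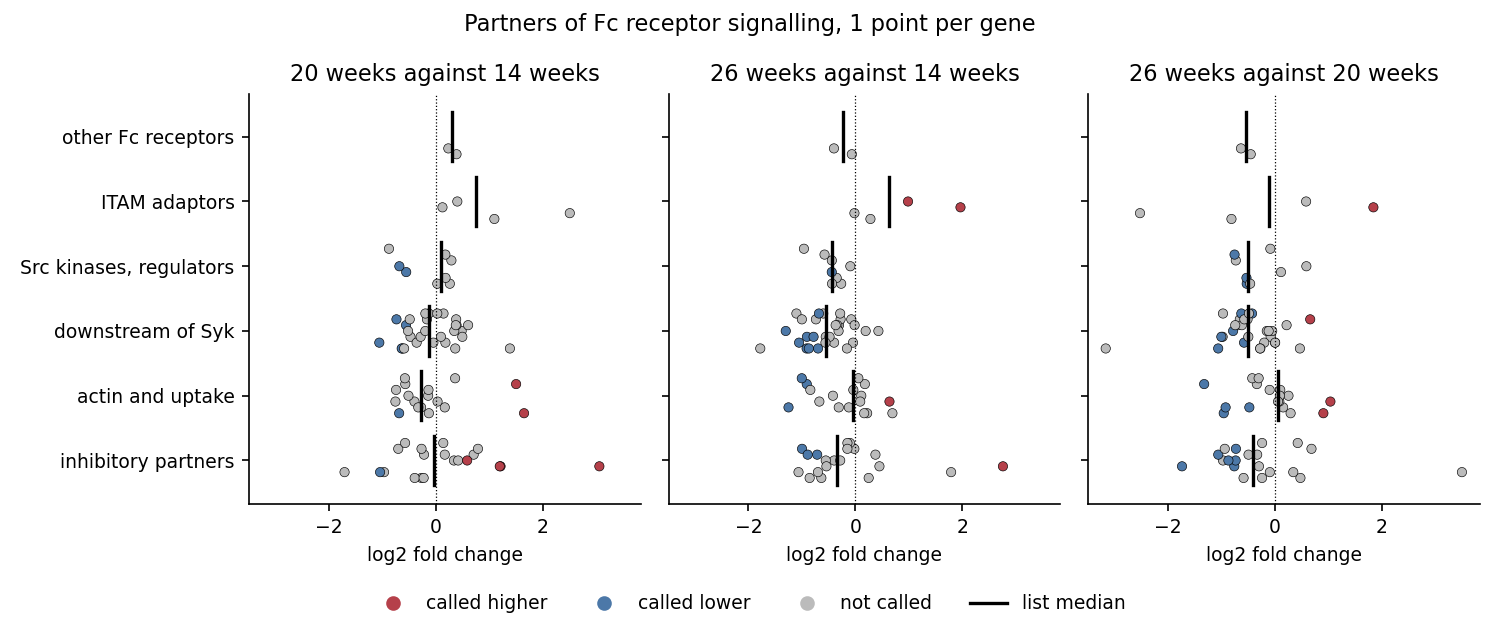
Log2 fold changes (x axis) of the 80 other tested genes of Fc receptor signalling in 6 lists and 3 pairs of ages, 1 point per gene, coloured by call, with a bar at the median of each list. The median of the list downstream of Syk lay at -0.13, -0.55 and -0.50 from left to right.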

How the data were processed

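RNA of sorted splenic neutrophils was read from 1 end, 100 nt per read, after libraries from 1 ng of cDNA, per the labels' protocols. Per the submitters' processing notes, the authors used GRCm38.p4 and the tools HTSeq 0.6.1, STAR 2.4.2a, Trimmomatic 0.32, DESeq and DESeq2 1.12.3, with no step named for each. The deposited table holds whole-number counts for each gene symbol in 18 columns, 1 per biological replicate, matched by the samples' descriptions. The sources used here do not give the annotation, strand setting or any filter on totals. Nothing states that replicates are separate mice, although they are called mice here, so p-values measure the spread between these samples.

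The tests used edgeR 4.0.16 (R 4.3.3) (TMM, filterByExpr by age, robust quasi-likelihood F tests) in 1 fit of 18 libraries with age as the only term, adjusted by Benjamini-Hochberg over 10104 genes. The fit was also run on simulated counts, with an outcome not reported here. They held no effect of exon length, so that run cannot speak to such an effect. Intervals of 95% use the SE and degrees of freedom of that fit. Depth ran from 5546624 to 17256379 counts per library; floors of 3 counts cover counting error only. Exon lengths are unions over GENCODE M21 basic models, found for 98.4% of tested genes. The members, gene lists and the rule for naming genes (all members, up to 5 called genes per list by smallest p, the 3 genes most like each member averaging 4 or more in log2 CPM) were chosen with earlier results of these data known. A part of the genes so named is described, and some are not reported here. The alternatives were RLE, upper quartile or no composition factors, DESeq2 1.42.0, limma-voom 3.58.1, no filter or a filter of 10 CPM in 6 libraries, fits of 2 ages alone, a block for the replicate number, each library left out, and, chosen after seeing the data, a loess correction per library for exon length, centred on its median. No batch is given in the labels.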

Additional observations from a re-analysis of the deposited data

Results flagged for a closer look

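None of the 24 groups of 6 libraries (8 tested genes at 3 ages) held a library whose gap to its nearest neighbour, as a share of the range of CPM, passed Dixon's 95% critical value for 6 samples, a test that marks about 1 in 20 groups by chance.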

How the results depend on the processing

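The count of genes called changed by over 1.5 times with DESeq2 at 20 against 14 weeks (1727, against 1030), at 26 against 14 weeks (1808, against 1111) and at 26 against 20 weeks (2553, against 1617). At 26 against 14 weeks it was 2633 with limma-voom, 1710 with only those 2 ages, 732 with the exon length correction and 652 to 1544 with 1 library left out. For any change limma-voom called 4005 genes, against 2321. With the length correction 2 of the 8 tested members were called at 26 against 14 weeks, against 4 in the main fit. Those 2 were Inpp5d and Fcgr3, and the main fit did not call Fcgr3. Fcer1g, Lyn and Syk lost their calls. Leaving out 1 library gave 2 to 4 called members. At 26 against 20 weeks 1 was called with only those 2 ages, against 3, and 1 to 4 with 1 library left out. For any change 2 to 5 were called with 1 library left out, against 4. With the replicate number as a block, 1 member was called at 26 against 20 weeks (Inpp5d), and 4 at 26 against 14 weeks. Same-numbered libraries of different ages had a median correlation of 0.00762 (18 pairs, 1 over 0.1), so the numbers were not taken as a pairing. Library totals alone put higher calls at 710 of 1052 at 20 against 14 weeks, against 498 of 1030, and at 564 of 1797 at 26 against 20 weeks, against 811 of 1617. The length correction put them at 220 of 732 at 26 against 14 weeks, against 551 of 1111, and at 572 of 1446 at 26 against 20 weeks. At 26 against 14 weeks upper quartile factors gave 699 of 1128 and DESeq2 1081 of 1808. Inpp5d kept its direction and call at 26 weeks in every alternative run, and Fcer1g at 26 against 14 weeks in all but the length correction. The causes were not tested. Fcgr1 had too few counts to be tested.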
